A study of Mus musculus with 2 samples.

Results

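The transcripts described here are the lines of a deposited transcript list that overlap mouse chr14:42030308-44129192 (build mm9) on either strand, 223 of the 110003 lines in the list, or 0.203%. They make up 4.44% of the 5021 lines on chromosome 14. The window was chosen by the number and position of the transcripts listed in it, so these values are a description and were not tested. The first transcript starts at the first base of the window and 2 transcripts end at its last base. The nearest lines outside are 2 transcripts that end 47276 bp before it and a single-exon transcript that starts 69881 bp after it.

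The list was deposited with a study of V6.5 cells, a mouse embryonic stem cell line grown on a layer of irradiated mouse embryonic fibroblasts. Whether every line of the list was assembled from RNA of these cells cannot be read from it. RNA from these cells went into 2 strand-specific sequencing libraries, 1 of polyadenylated RNA and 1 of total RNA from which ribosomal RNA had been removed. There is 1 library of each kind and no second culture or treatment, and the list names no library, so no transcript can be assigned to a library and no spread between cultures can be given. The list holds positions, block structures and a score, with no read counts, so the depth behind each transcript is unknown, and RNA of the feeder cells cannot be told apart from that of the stem cells.

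Parts of mouse chromosome 14 consist of duplicated genes. The best known family there is named takusan, after the Japanese word for many; its genes are related to Dlg5, which encodes a scaffold protein of the membrane-associated guanylate kinase family, and takusan proteins have been studied in neurons, where they act at synapses. In duplicated DNA, genes keep their exon lengths and often much of their intron lengths from copy to copy. Transcripts from different copies can therefore be recognised by the lengths of their parts, and a short sequencing read may match several copies equally well.

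The lengths that recurred most often in the window were a 163 nt exon followed by a 132 nt exon. Because transcript sequences come with the annotation and not with the list, the 132 nt exon is shown here from annotated genes (GENCODE M21 transcripts, build GRCm38) to let the copies be compared letter by letter. The first line is the gene 2610042L04Rik, for which RefSeq gives takusan as a synonym and which lies outside the window. The next 4 are plus-strand genes whose intron and exon lengths were found in transcripts of the window, and the last is a minus-strand gene from the same stretch of the annotation. Each is written 5′ to 3′ along its transcript, lies inside the coding sequence, and has in capitals the bases that differ from 2610042L04Rik.
2610042L04Rik (chr14:4349922-4350053, plus strand): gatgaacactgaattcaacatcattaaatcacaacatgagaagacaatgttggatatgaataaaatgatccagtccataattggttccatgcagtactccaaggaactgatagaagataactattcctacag
Gm5798 (chr14:41350606-41350737, plus strand): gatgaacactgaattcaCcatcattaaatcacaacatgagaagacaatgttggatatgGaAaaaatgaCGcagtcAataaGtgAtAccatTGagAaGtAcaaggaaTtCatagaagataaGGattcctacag
1700024B05Rik (chr14:41997289-41997420, plus strand): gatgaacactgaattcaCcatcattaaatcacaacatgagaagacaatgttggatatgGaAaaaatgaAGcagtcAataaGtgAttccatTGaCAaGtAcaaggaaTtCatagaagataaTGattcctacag
Gm7995 (chr14:42311329-42311460, plus strand): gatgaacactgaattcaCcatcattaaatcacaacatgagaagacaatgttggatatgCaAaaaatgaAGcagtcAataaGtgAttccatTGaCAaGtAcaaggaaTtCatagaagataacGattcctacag
Gm8126 (chr14:43260686-43260817, plus strand): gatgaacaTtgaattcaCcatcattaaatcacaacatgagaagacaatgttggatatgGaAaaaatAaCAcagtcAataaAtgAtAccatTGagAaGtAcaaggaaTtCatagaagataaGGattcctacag
Gm8020 (chr14:42499648-42499779, minus strand): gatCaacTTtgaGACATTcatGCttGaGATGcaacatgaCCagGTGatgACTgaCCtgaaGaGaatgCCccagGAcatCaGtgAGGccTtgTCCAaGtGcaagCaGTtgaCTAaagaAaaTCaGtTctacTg

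The exon of Gm5798 differed from that of 2610042L04Rik at 18 of 132 positions, that of 1700024B05Rik also at 18, that of Gm7995 at 17 and that of Gm8126 at 20. The minus-strand gene Gm8020 differed at 56 positions. Many of the capitals in the 4 plus-strand genes stand at the same positions. Among the 12 matched plus-strand genes that hold the exon pair, any 2 copies of the 132 nt exon differed from each other at 0 to 9 positions.

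Of the 223 transcripts, 220 have names that begin with U, 2 begin with FT and 1 with BROAD; the sources used here do not say what these prefixes mean. All U names in the window have a score of 0, both FT names a score of 1000 and BROAD14355 a score of 1. The plus strand carried 222 transcripts, 99.6% (95% Clopper-Pearson interval 97.5 to 100, counting error only). On the rest of chromosome 14 the plus strand carried 49.9%. The single minus-strand transcript, U354243-1, is one exon of 195 nt near the start of the window. Among 1236 other stretches of the same length that held at least 20 transcripts, the share on the fuller strand had a median of 58.1% and a maximum of 97.1%. Those stretches were cut without regard to strand, whereas the window has the bounds of 1 chain of overlapping plus-strand transcripts. The contrast in strand therefore follows in part from how the window was drawn.

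Splicing was listed for 116 of the 223 transcripts, 52% (interval 45.2 to 58.7), against 27.5% (26.2 to 28.8) of the 4798 other transcripts on chromosome 14. The intervals treat transcripts as independent; overlapping transcripts share exons, so they are too narrow. Among U names alone, 51.8% were spliced in the window and 19.1% elsewhere. Spliced transcripts had 2 exons in 54 cases, 4 in 19 and 5 in 25, and 3 transcripts had 7. These 3, U040139-39, U040139-40 and U040139-41, share their first 6 exons of 320, 73, 132, 163, 132 and 181 nt and part only at the last exon, of 16, 338 and 43 nt. The exons of a transcript added up to a median of 537 nt over all members (83 to 1891), 472 nt for single-exon and 812.5 nt for spliced transcripts.

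**Figure D1:**
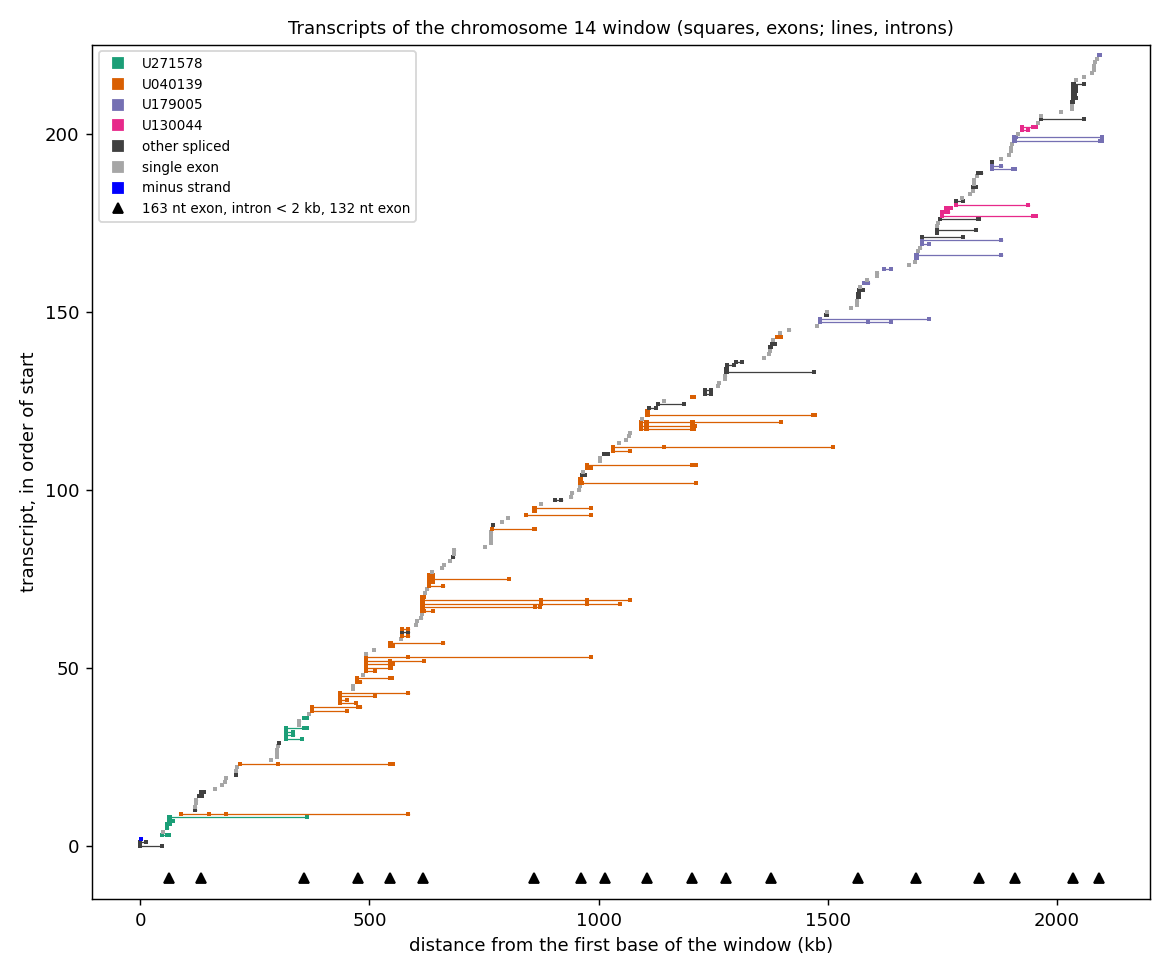
Each row is 1 of the 223 transcripts in order of its start, with squares for exon starts and lines for introns, against the distance from the first base of the window in kb; colours mark the 4 name roots placed more than once, and black triangles the 19 places of the 163 nt and 132 nt exon pair. The plus-strand spans form an unbroken staircase, whose ends are the bounds of the window, and the triangles are spread along its whole length.

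Joined by overlapping spans, the 222 plus-strand transcripts formed 1 chain over all 2098885 bp. The ends of this chain are the bounds of the window, so that it is unbroken follows from the choice of window. Joined by overlapping exons, all 223 transcripts fell into 132 separate loci. The unbroken chain is therefore held together by introns. Of 212 distinct introns, 58 were at least 20000 bp long, 27.4% against 8.07% of introns in the rest of the list. Introns in the window had a median of 3850.5 bp, and those elsewhere 1377 bp.

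Exon lengths repeated more often than intron lengths, which span a far wider range, so the 2 shares are not directly comparable. The window holds 387 distinct exons but only 149 exon lengths. Of these exons, 317, or 81.9%, had a length found at 1 or more other starts. This share was not computed for the rest of the list, so how far it exceeds that of other exons is unknown. The 132 nt exon stood at 27 starts, the 163 nt exon at 20, an exon of 182 nt at 15 and one of 424 nt at 11. All of these were on the plus strand. The 424 nt exon always formed a transcript of its own. Of the 212 introns, 73 had a repeated length, 34.4%, a share that was likewise computed for the window only. These were nearly all short: 67 of the 101 introns under 2 kb had a repeated length, 6 of the 53 between 2 and 20 kb, and none of the 58 longer ones.

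The exon pair of 163 nt and 132 nt, joined by an intron under 2000 bp, was found at 19 places, carried by 36 transcripts. All are on the plus strand, as is every spliced transcript of the window. Neighbouring places were a median of 97564 bp apart, and the gaps ranged from 52321 to 242165 bp. The intron inside the pair was 945 to 1000 bp long with a median of 959 bp and took 12 different lengths. The 2 exon lengths are the same at every place because they define it; the intron between them was free to vary. The intron before the pair was 719 to 891 bp long at the 16 places that had a short one, and the intron after it 217 to 702 bp at 18 places.

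**Figure D2:**
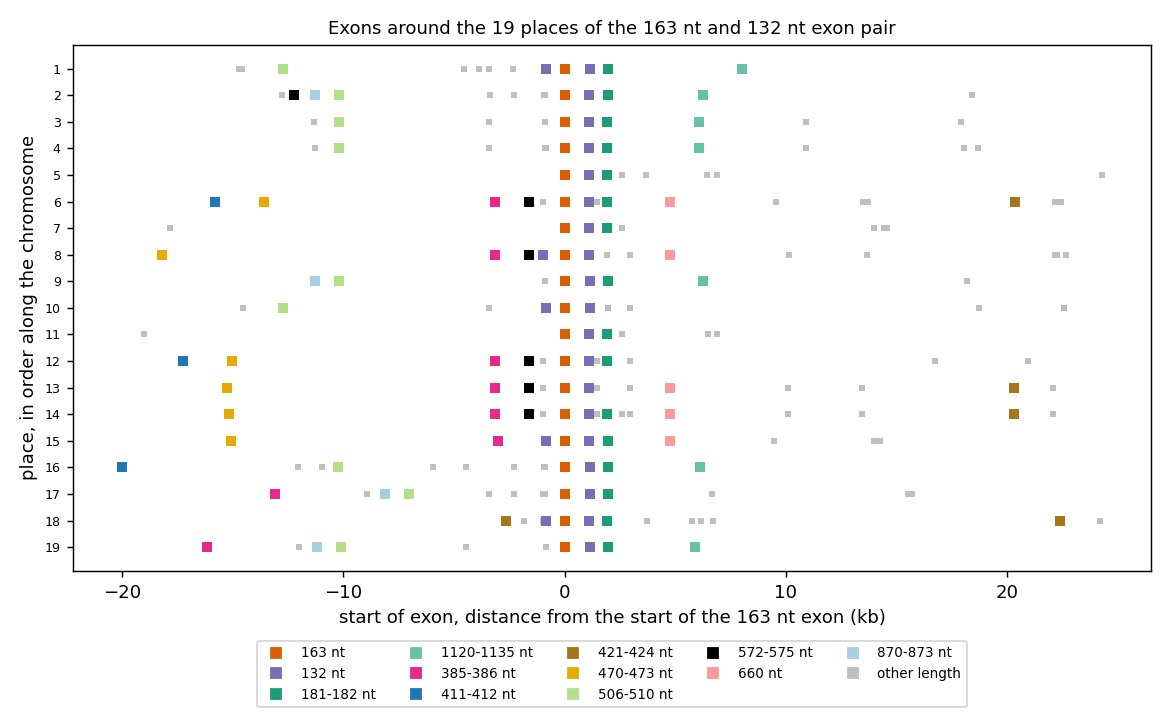
The 19 places are stacked in their order along the chromosome and aligned on the start of the 163 nt exon; each square is the start of an exon, with its distance in kb on the horizontal axis and its length by colour. The 132 nt exon starts 1108 to 1163 bp after it at every place, while an exon of 385 to 386 nt within 5 kb upstream and one of 506 to 510 nt within 20 kb upstream are found at different places.

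The surroundings of the pair sorted the places into 3 kinds, a split made after the plot of aligned places was seen and given with no test. At 6 places a single-exon transcript of 385 to 386 nt stood within 5 kb upstream, and 5 of these also had a single-exon transcript of 660 nt within 5 kb downstream. At 9 other places an exon of 506 to 510 nt stood within 20 kb upstream, and 7 of these had an exon of 1120 to 1135 nt within 10 kb downstream. No place had both kinds of upstream exon within these distances, although 2 of the 9 had an exon of 385 to 386 nt further than 5 kb upstream. None of the 6 had the exon of 1120 to 1135 nt. The remaining 4 places had neither. The intron inside the pair was 956 to 960 bp at the 6 places, 945 to 1000 bp at the 9, and 955 to 957 bp at the 4. These ranges overlap.

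Some distances from the pair varied by few bases. The 386 nt transcript began 3125 bp before the 163 nt exon, within 3129 to 3124 bp, at 5 of the 6 places of the first kind. At the other, U352356-1 began 2999 bp before it. The 660 nt transcript began 4768 bp after it, within 4754 to 4769 bp, at 5 places. An exon of 91 nt began 982 bp before it at 5 places, with no variation, and an exon of 70 nt began 1468 to 1471 bp after it at 4 places. Of the exons after the pair, that of 182 nt was less regular. An exon of 182 nt began 1920 to 1973 bp after the 163 nt exon at 12 places, and one of 181 nt at 1930 to 1939 bp at 5 places.

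What followed the 132 nt exon also differed between transcripts. The counts here include transcripts without a 163 nt exon, such as U271578-9. They also include transcripts that join the 163 and 132 nt exons by a long intron, such as U130044-11 with 198198 bp. Among transcripts that run from the 132 nt exon into an exon of 182 nt and then a last exon, 13 of 18 had a last intron of 3741 to 5844 bp and a last exon of 1120 to 1135 nt. The other 5 used a longer or shorter last intron, such as 298337 bp in U271578-5. Among the 15 transcripts that run from the 132 nt exon into an exon of 181 nt and then a last exon, the last exon took 8 different lengths, from 16 to 763 nt. The last exons of 338 nt and 43 nt were each used at several places: that of 338 nt ended U040139-31, U040139-40, U179005-6 and U357738-6 behind introns of 122278, 190374, 184333 and 22087 bp. These 4 transcripts end at 4 different positions.

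Some transcripts joined the 163 nt exon directly to the next exon and left out the 132 nt exon. This was listed at 5 places, by 6 transcripts, with introns of 1767 to 1776 bp. U040139-12 and U040139-44 both left it out with an intron of 1768 bp, and had their 163 nt exons 659768 bp apart. At each of the 5 places at least 1 other transcript included the 132 nt exon, from 1 transcript at the place of U179005-5 to 5 at the place of U040139-12. Both forms stand in the list; their relative amounts cannot be read from it.

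Exact copies of a longer stretch were few. Of the 62 transcripts with at least 3 exons, 8 shared a run of intron, exon and intron lengths, equal to the base, with a transcript elsewhere in the window, 12.9% against 2.21% of 15220 such transcripts in the rest of the list and 0.343% on the rest of chromosome 14. The 6 shared runs fell into 4 groups of 2 places each. U271578-10 and U040139-9, 117256 bp apart, have the same exons of 156, 163, 132, 182 and 1129 nt and the same first 3 introns of 728, 945 and 680 bp. Their last introns, of 3985 and 3979 bp, differ by 6 bp. U040139-24 and U357707-1, 758311 bp apart, have identical lengths throughout: exons of 91, 163, 132 and 70 nt and introns of 891, 958 and 217 bp. The other pairs were U040139-12 with U040139-44, described above, and U040139-32 with U040139-39, which share introns of 680 and 483 bp around an exon of 181 nt, with the shared stretches 345729 bp apart. All 8 places were on the plus strand, as is every spliced transcript of the window.

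When lengths were allowed to differ by up to 5 bp, 42 of the 62 transcripts recurred, 67.7% against 3.88% in the rest of the list and 1.89% on the rest of chromosome 14. The group with the most places had 8, from 42575141 to 44065768, with distances between neighbours of 70860 to 345728 bp. One other stretch of equal length, on chromosome 7, had as many recurring transcripts, 43 of 55 tested. With lengths equal to the base, 8 other stretches had at least the 8 recurring transcripts of the window, and the highest count was 41. With differences of up to 5 bp allowed, 3 of 155 stretches with at least 20 transcripts to test had a share as high as the window's 67.7%. When only the lengths of 2 successive internal exons had to match, 49 of 52 transcripts recurred, 94.2% against 9.37% elsewhere.

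**Figure D3:**
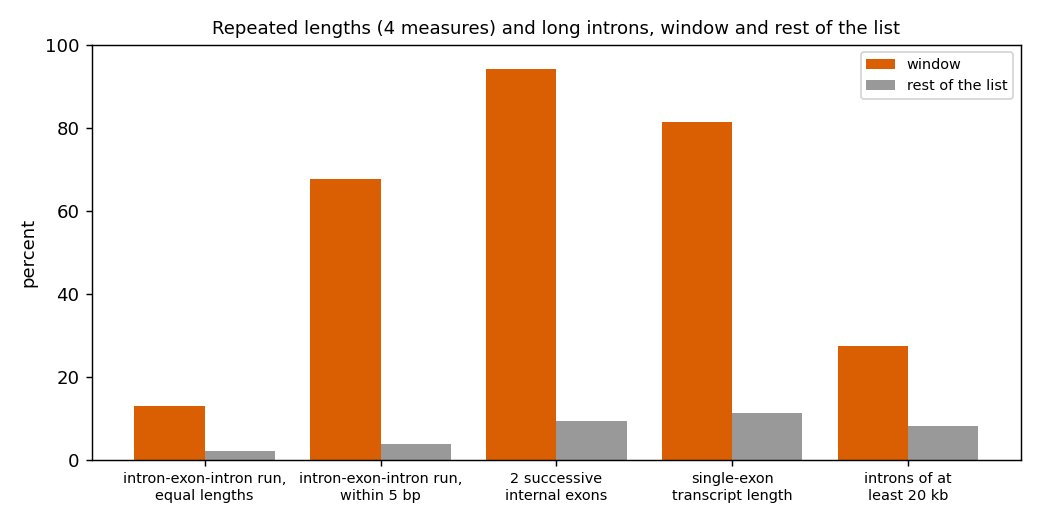
Bars give the percent of transcripts (or, for the last pair, of introns) in the window and in the rest of the list for 4 measures of repeated length and for introns of at least 20 kb. Every measure was higher in the window, from 12.9% against 2.21% for exact runs to 94.2% against 9.37% for 2 successive internal exons; bars carry no error because there is 1 list.

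Repetition was not limited to spliced transcripts. Each single-exon transcript was compared with its nearest neighbours of exactly the same length and strand, and counted if it did not overlap one of them. Of the 107 single-exon transcripts of the window, 87 were counted, 81.3% against 11.2% in the rest of the list. When each length was linked to the next if they differed by at most 2 nt, 8 classes had at least 5 places, the fullest being 421 to 424 nt with 17 places, 506 to 510 nt with 13, and 385 to 386 nt and 470 to 473 nt with 10 each. U332391-1 and U354853-1, of 422 nt, have different names and the same position, so only U332391-1 entered the count of 87.

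Single-exon transcripts of different classes followed each other in a recurring order. Of the 10 transcripts of 385 to 386 nt, 7 were followed within 20 kb by one of 572 to 575 nt, with starts 1510 to 1696 bp apart and a median of 1511 bp. Of the 8 transcripts of 572 to 575 nt, 6 began 629 to 634 bp before the 5′ end of a spliced transcript. All 7 transcripts of 870 to 873 nt began 1097 to 1100 bp before one of 506 to 510 nt. Distances were looser between the 470 to 473 nt and the 385 to 386 nt transcripts, at 10443 to 15056 bp in 8 of 10 cases. Each of these chains is listed as separate transcripts, with no splice between them.

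**Figure D4:**
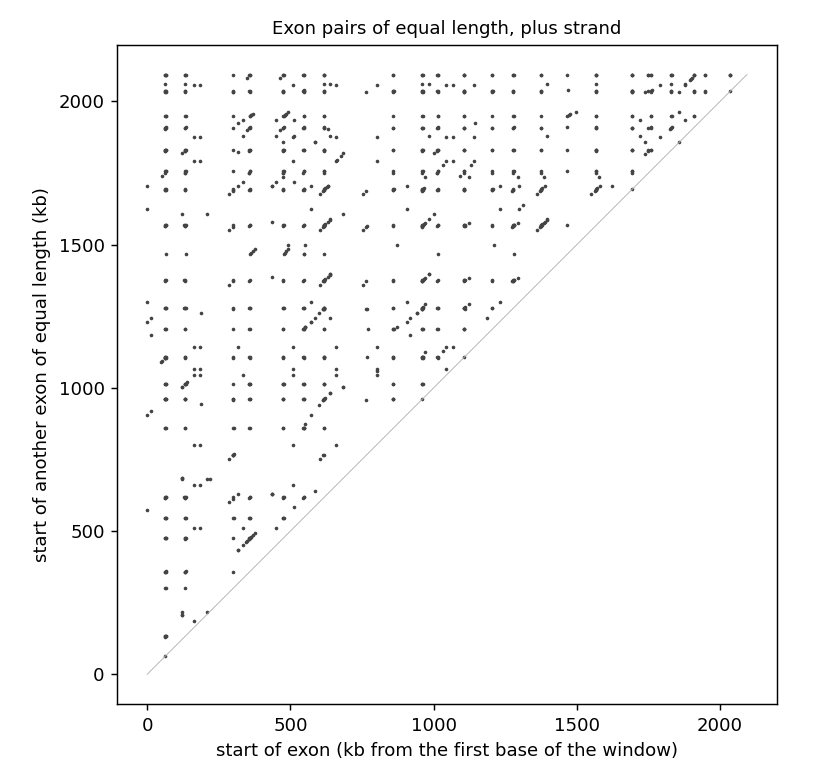
Each point is a pair of plus-strand exons of equal length, placed by the distance of their starts from the first base of the window in kb. Short diagonal streaks are runs of several exons in the same order and spacing at both positions, and the grid of columns and rows is formed by the 163 nt, 132 nt and 182 nt exons that recur at many places.

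Among transcripts with 2 exons, 10 pairs of exon lengths were placed more than once and covered 26 transcripts, and in none of the 10 were any introns equal. These counts were not made for the rest of the list, so no background share can be given. Exons of 213 and 83 nt were joined in 5 transcripts by introns of 6945, 6954, 6983, 13580 and 15587 bp. Exons of 323 and 859 nt were joined by introns of 8316, 8321 and 8338 bp. In the pair of 446 and 860 nt the introns were 75325 bp in U040139-3 and 236073 bp in U179005-2.

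Long introns ran past other copies. The 58 introns of at least 20000 bp had a median of 96959.5 bp and reached 398452 bp, and 52 transcripts, 44.8% of the spliced ones, contained at least 1. That share of transcripts was not computed for the rest of the list. Of the 58, 37 passed over 1 or more places of the exon pair, up to 3, and 18 passed over an exon with the length of the one they left or joined. The transcripts with the longest spans were U040139-2 with 497290 bp, U040139-15 with 491575 bp and U040139-37 with 480241 bp. Each owed most of it to 1 intron, of 398330, 398452 and 367567 bp, which passed over 3 places of the pair. How these joins arose was not tested.

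U names consist of a root, a hyphen and a number, and 139 roots occur in the window, counting the 3 FT and BROAD names, which have no hyphen, as roots of their own. All of their lines lie inside it. Of 14 roots with more than 1 transcript, 4 were placed more than once, meaning that some of their transcripts do not overlap. How often this holds for roots elsewhere in the list was not computed. U040139 has 45 transcripts, all spliced, between 42118179 and 43541975, and up to 14 of them lie side by side without overlap. It has the second highest number of transcripts among the 81887 U roots of the list. U179005 has 13 spliced transcripts in the distal part, between 43513603 and 44129192, with 6 side by side. U271578 has 10 between 42078416 and 42394601 with 4 side by side, and U130044 has 6 between 43779134 and 43984544 with 2, inside the range of U179005. The other 10 roots each hold transcripts that overlap at 1 place. U350104, the leftmost of them, has 2 transcripts at the start of the window, and U357738 has 6 between 43994384 and 44090144. The number 13 of U179005 and 5 numbers of U130044 are absent from the list used here.

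Matching by length alone, with no conversion between builds, tied 30 of the 62 transcripts with at least 3 exons to annotated genes of chromosome 14 on the same strand, 48.4%. The same search on the opposite strand matched 0. The matched share was not computed for the rest of the list, so whether 48.4% is high or ordinary is unknown. The 30 transcripts matched 15 genes, all on the plus strand, of which 13 are annotated as protein-coding and 2, Gm3008 and Gm9597, as pseudogenes. Most matches went to 1700024B05Rik with 5 transcripts and to Gm10378 and Gm9597 with 4 each. 1700049E17Rik1 and 1700049E17Rik2 were matched by 3 each, of which 2 (U040139-9 and U271578-10) matched both. Gm2832, Gm5799, Gm7995, Gm8126 and Gm9732 had 2 each, and Gm3008, Gm5798, Gm7233, Gm8011 and Gm8104 had 1. In all, 4 transcripts matched several genes, so those copies cannot be told apart by length.

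In GRCm38 the matched genes lie between 41278805 and 43551213 on chromosome 14. That stretch holds 46 protein-coding genes, 13 of them transcribed in the plus and 33 in the minus direction. Its ends are set by matched genes. Transcripts of the window matched all 13 plus-strand genes and none of the 33 minus-strand genes. All 62 transcripts searched are on the plus strand, so a minus-strand gene could be matched only in the search on the opposite strand. At 8 places of the exon pair the transcripts matched exactly 1 gene with the same intron inside the pair, and these genes follow each other in the same order as the places. Of the 7 distances between neighbours, 5 were equal to the base in the list and in the annotation: from Gm2832 to Gm5798 it was 69794 bp in both, and from 1700024B05Rik to Gm7995 it was 314040 bp in both. From Gm5798 to 1700024B05Rik the annotation was longer by 234482 bp (646687 against 412205 bp), and from Gm10378 to Gm7233 it was shorter (524812 against 624538 bp).

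The exon pair itself is found in 167 annotated genes of chromosome 14, which differ by group. The 98 genes in the first 8000000 bp of the chromosome, where 2610042L04Rik lies, have an intron of 926 to 960 bp inside the pair, and their 132 nt exon was 92.4 to 100% identical to that of 2610042L04Rik, counted position by position without gaps. The 13 plus-strand genes of the matched stretch that hold the pair, pseudogenes included, have an intron of 945 to 1000 bp and were 84.8 to 87.1% identical. Their 163 nt exon was 69.3 to 71.2% identical, against 87.7 to 97.5% in the first group, leaving out 2610042L04Rik itself. The 27 minus-strand genes of the same stretch have an intron of 1113 to 1334 bp, with a 132 nt exon that was 55.3 to 58.3% identical. Since 12 of the 13 plus-strand genes were matched through their lengths, their sharing of the 945 to 1000 bp range with the list follows largely from the matching. The stretch is also bounded by matched genes. Distal to it, the strand that holds the shorter intron changes along the chromosome. Close to the stretch, the plus-strand gene Gm6526 has 990 bp and the minus-strand gene Gm8180 has 1286 bp. Further on, the plus-strand gene Gm3327 has 1295 bp and the minus-strand gene Gm5930 has 954 bp. Distal to the stretch, 27 further genes hold the pair: 6 minus-strand genes with an intron of 948 to 984 bp (83.3 to 87.9% identical), 9 plus-strand genes with 1255 to 1308 bp (56.1 to 57.6%), 3 plus-strand genes with 944 to 990 bp and 9 minus-strand genes with 1239 to 1353 bp.

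**Figure D5:**
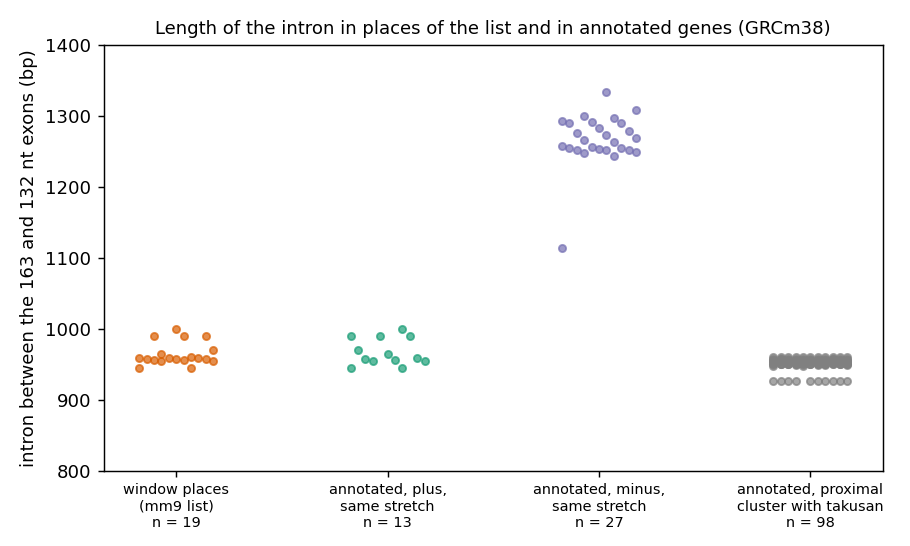
Points give the length in bp of the intron between the 163 nt and 132 nt exons for the 19 places in the list (mm9), and for annotated genes (GRCm38): 13 plus-strand genes and 27 minus-strand genes of the matched stretch, and 98 in the proximal cluster that holds takusan. The vertical axis does not start at 0; places in the list span 945 to 1000 bp, as do the 13 plus-strand genes, 12 of which were matched to the list by length, and the minus-strand genes span 1113 to 1334 bp.

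In the rest of the list the pair was found at 8 further places, all on chromosome 14, of which 3 were plus-strand and 5 minus-strand. One of the plus-strand places, with an intron of 958 bp, begins at 44214325 and another, with an intron of 990 bp, at 44326414, both beyond the distal end of the window. No transcript of the window matched Dlg5 or 2610042L04Rik. Among other gene families, none of the 22 ribonuclease A family genes was matched (19 annotated by symbol, but only 1 with enough exons). None of the 11 Cphx, Duxbl, Plac9 and Tmem254 genes, tandem families of the same chromosome, was matched either. For all of these genes the whole list also held 0 matches, so their absence is not particular to the window. Checks of the cell type by this route gave nothing to compare: 0 of 8 stem cell genes such as Pou5f1 and Nanog and 0 of 8 fibroblast genes such as Col1a1 and Vim had a matched run in the whole list.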

How the data were processed

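RNA of V6.5 embryonic stem cells was sequenced as 1 polyadenylated and 1 ribosomal-RNA-depleted library. TopHat and build mm9 are named in the submitters' processing notes; the sources used here give neither its version nor the handling of reads that match several places. The authors deposited 1 list of transcripts in BED format, per the file headers an initial pool, with start and end positions, block structures (units other than expression) and a whole-number score; 0 of its columns with values were left out. Starts were counted from 1 and gaps under 30 bp joined into 1 exon. Repeated runs of intron, exon and intron lengths had to lie in transcripts that do not overlap; in the rest of the list a copy had to lie within 2098885 bp. Shares have 95% Clopper-Pearson intervals (scipy 1.17.1, Python 3.11.15). Structures were looked up by length in GENCODE M21 (GRCm38) because no mm9 genome was used here; no coordinate was converted. The finder was tested on simulated data. Named were the groups, roots, transcripts and up to 20 genes that ranked highest by places, exons, span or matches. The transcripts and gene lists were chosen with earlier results of these data known. No test was run, since there is 1 list.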

Additional observations from a re-analysis of the deposited data

How the results depend on the processing

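Joining transcripts by overlapping exons gave 132 loci in place of 2. Exact recurrence depended on the tolerance. Within 1 bp, 26 transcripts recurred in 21 runs at 19 plus-strand places, with a median spacing of 314040 bp. Within 5 bp these were 42, 38, 29 and 288279 bp, and the same values held when, as an alternative chosen after seeing the data, only the runs had to be free of overlap. The equal-length values were 8, 6, 8 and 502748.5 bp. A run with 1 further exon and intron recurred in 4 transcripts (2 runs), and single introns of at least 500 bp in 52 (20 lengths). No minus-strand place could be found under any of these settings, because the only minus-strand transcript of the window has 1 exon. With a further exon and intron, 16 in place of 30 transcripts matched annotated genes. The other 36 values, from joining no gaps or gaps under 10 or 50 bp, U names alone, places 10000 bp apart, runs that match 1 gene, and similar settings, stayed within 1.5 times the main count or inside the interval of the share. Unknown depth limits every count: a transcript absent from the list may have been expressed. No paired analysis was possible because there is 1 list and no replicate.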
